A study of Homo sapiens with 11 samples.

Results

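The mitochondrial ribosomal protein genes were taken as the rows of the raw count file named MRPL or MRPS with a number and at most 1 further letter, pseudogenes left out. The pattern found 78 of 35303 genes, 49 with MRPL symbols, named for the large subunit, and 29 with MRPS symbols, named for the small subunit. RNA was sequenced from LX-2, an established cell line derived from human hepatic stellate cells, which turn into matrix-producing myofibroblasts in liver injury. The 3 groups were cells given PBS, cells given the virus HIV-1BaL (multiplicity of infection 0.1), and cells given that virus together with 1 ug per ml of lipoteichoic acid (LTA), a polymer of the Gram-positive cell wall. Each group was taken at 24 h as 3 libraries, 1 from each of 3 batches, and the replicate number is the batch number in the labels. Every RNA-seq library is labelled as wild-type cells of this 1 line, none had LTA alone, and the labels do not say whether replicates were separate cultures, so p-values measure the spread between these libraries. The study's question, from its title, concerns IL-8 and what HIV-1 does to how these cells answer Gram-positive material.

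The mitochondrial ribosome translates the 13 proteins encoded by mitochondrial DNA, all of them parts of the respiratory chain and ATP synthase. Its RNAs are made inside the organelle, while all its proteins are encoded in the nucleus, translated in the cytosol and imported, so the members described here are scattered over the chromosomes. Some start beside another gene on the opposite strand, as MRPL46 and MRPS11 do on chromosome 15. Some proteins have bacterial counterparts, and others occur only in mitochondria. NRF1, GABP (an ETS family factor built from GABPA and GABPB1), YY1 and SP1 are textbook regulators of nuclear genes for mitochondrial proteins.

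Promoter sequences are shown for members that the results turn on: the pair with the highest levels per kb (MRPL51 and MRPL33), a pair that was low in HIV-1+LTA libraries (MRPL3 and MRPL47), and the member of the 77 in the main test that differed most between batches (MRPS24). Each window runs 5′ to 3′ from 250 bases before to 50 bases after a start annotated by RefSeq on GRCh38.p14. Capitals mark exact matches, on either strand, of the ETS core CCGGAAG or the YY1 core AAGATGG.
MRPL51, chr12:6493213-6493512, minus strand: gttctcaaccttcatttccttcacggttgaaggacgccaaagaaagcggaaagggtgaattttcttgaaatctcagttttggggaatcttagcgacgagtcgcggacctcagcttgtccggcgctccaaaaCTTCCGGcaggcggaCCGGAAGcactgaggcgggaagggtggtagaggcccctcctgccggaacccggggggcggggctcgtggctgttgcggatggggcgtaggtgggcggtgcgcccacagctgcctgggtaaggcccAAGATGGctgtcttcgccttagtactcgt
MRPL33, chr2:27771469-27771768, plus strand: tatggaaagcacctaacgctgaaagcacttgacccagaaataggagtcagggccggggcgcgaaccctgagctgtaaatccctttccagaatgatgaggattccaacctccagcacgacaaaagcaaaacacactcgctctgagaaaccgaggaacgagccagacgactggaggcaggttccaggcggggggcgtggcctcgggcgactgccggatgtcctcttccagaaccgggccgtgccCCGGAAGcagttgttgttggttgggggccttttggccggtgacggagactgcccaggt
MRPL3, chr3:131502922-131503221, minus strand: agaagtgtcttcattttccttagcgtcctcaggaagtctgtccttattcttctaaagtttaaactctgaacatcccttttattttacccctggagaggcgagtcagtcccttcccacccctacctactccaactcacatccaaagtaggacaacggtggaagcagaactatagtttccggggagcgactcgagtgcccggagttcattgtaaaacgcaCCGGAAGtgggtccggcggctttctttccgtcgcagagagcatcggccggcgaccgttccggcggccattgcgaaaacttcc
MRPL47, chr3:179604589-179604888, minus strand: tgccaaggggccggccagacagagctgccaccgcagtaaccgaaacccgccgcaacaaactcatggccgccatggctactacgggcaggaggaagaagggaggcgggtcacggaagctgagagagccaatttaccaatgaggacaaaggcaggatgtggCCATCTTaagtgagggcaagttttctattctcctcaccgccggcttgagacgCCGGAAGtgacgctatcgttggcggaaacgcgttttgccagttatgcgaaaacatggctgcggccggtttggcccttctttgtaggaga
MRPS24, chr7:43869468-43869767, minus strand: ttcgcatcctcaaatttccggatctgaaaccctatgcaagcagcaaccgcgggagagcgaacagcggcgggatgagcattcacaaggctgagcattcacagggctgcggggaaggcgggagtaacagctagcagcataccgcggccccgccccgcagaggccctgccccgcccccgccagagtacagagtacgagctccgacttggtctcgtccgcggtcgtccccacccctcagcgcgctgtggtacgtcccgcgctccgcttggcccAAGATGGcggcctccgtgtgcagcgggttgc

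RefSeq windows of 300 bases were matched by symbol for 69 of the 78 members, 85 windows in all. The ETS core stood in the windows of 30 of those 69 members (43.5%), against 20.7% of 12304 tested genes with a window. MRPL51 carried it in both orientations, MRPL33, MRPL3 and MRPL47 carried it once, and MRPS24 did not have it. The YY1 core stood in 24 members (34.8%) against 8.81% of tested genes, among them MRPL51, MRPL47 and MRPS24. The palindromic NRF1 consensus motif was found in 1 member (1.45%, against 2.45%). The SP1 core GGGCGG, a general feature of GC-rich promoters, was found in 42 members (60.9%, against 74.0%). Counted per window over all 35116 windows of this length, the ETS core held 38.8% of member windows against 10.3%, the YY1 core 31.8% against 5.84%, the NRF1 motif 1.18% against 1.24%, and the SP1 core 60.0% against 45.0%. No motif searched contains another, both strands were read, and a match describes letters, not binding.

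The ChIP-seq peak list, for HIV-1-treated cells and with no antibody named in the labels, held 154 distinct positions and gave few of them to these genes. A peak lay within 100 kb of the start of 4 members (5.13%), against 2.24% of all annotated genes, and within 10 kb of 2, MRPL18 and MRPL2. The MRPL18 peak (hg19 chr6:160211015-160211201) overlapped an exon of a longer MRPL18 transcript and lay 298 bp from the start of the canonical transcript. TCP1, a subunit of the cytosolic chaperonin, starts beside it on the other strand, so the peak cannot be given to either gene. The MRPL37 peak (chr1:54665907-54666230) lay 67 bp from the canonical start of MRPL37 and overlapped an exon, although it is 16.2 kb from the outermost annotated start. MRPL2 had its nearest peak 5651 bp from its canonical start, and MRPL51 had one 40360 bp away. The ChIP part has a library for each of PBS and HIV-1; both are titled as Lx2, but the cell line field reads Lx3 for PBS and Lx5 for HIV-1, so the cells behind the peaks are in doubt. A peak list of the PBS library was not analysed here, and the list used holds no value per peak, so no comparison was made.

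The members made up 0.336 to 0.360% of all counts in each of the 9 libraries, which held 50.6 to 90.6 M counts. Levels between genes were compared as CPM (counts scaled to library size, after TMM) per kb of the GENCODE canonical transcript, which assumes that this isoform is the one made. The median member stood at 21.2 CPM per kb as a mean over all libraries. MRPL51 (chr12:6601052-6603007), a mitochondria-specific large subunit protein, was highest at 262 CPM per kb and ranged from 237 to 278 over the libraries. MRPL33, the counterpart of bacterial L33, followed at 209 (168 to 293). Next came MRPL18, counterpart of bacterial L18, at 89.8 (76.9 to 98.3), MRPL36 at 82.8 (75.6 to 92.1), MRPL27 at 82.3 (71.9 to 90.4) and MRPL3 at 69.6 (50.9 to 92.9). The ranges of MRPL51 and MRPL33 overlap each other but none of these 4, and those 4 overlap one another, so their order is not settled.

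The lowest levels per kb, as means over all libraries, were those of MRPL53 at 0.598 (0.344 to 1.08), MRPL38 at 2.19 (1.62 to 2.79), MRPL23 at 2.47 (0.0551 to 10.9), MRPL12 at 2.77 (1.61 to 3.75), MRPL2 at 4.98 (4.29 to 5.49) and MRPL41 at 4.99 (3.07 to 6.29). MRPL12, a stalk protein that also binds the mitochondrial RNA polymerase, and MRPL2, the counterpart of bacterial L2 near the catalytic centre, do not overlap in range. MRPL53, lowest by this mean, had 9 counts in its poorest library. MRPL23 was the lowest member in 7 of the 9 libraries, at 0.0551 to 0.238 CPM per kb, and MRPL53 was the lowest in HIV-1 replicates 2 and 3. Other GENCODE genes cover 99.2% of the exon bases of MRPL53, 94.3% of those of MRPL38 and 69.5% of those of MRPL12. The strand setting of the counting is not given, so these counts are uncertain. No canonical exon base of MRPL51, MRPL18 or MRPL23 is shared in GENCODE, which does not by itself make their counts certain. No member had a total under 100 counts.

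**Figure D1:**
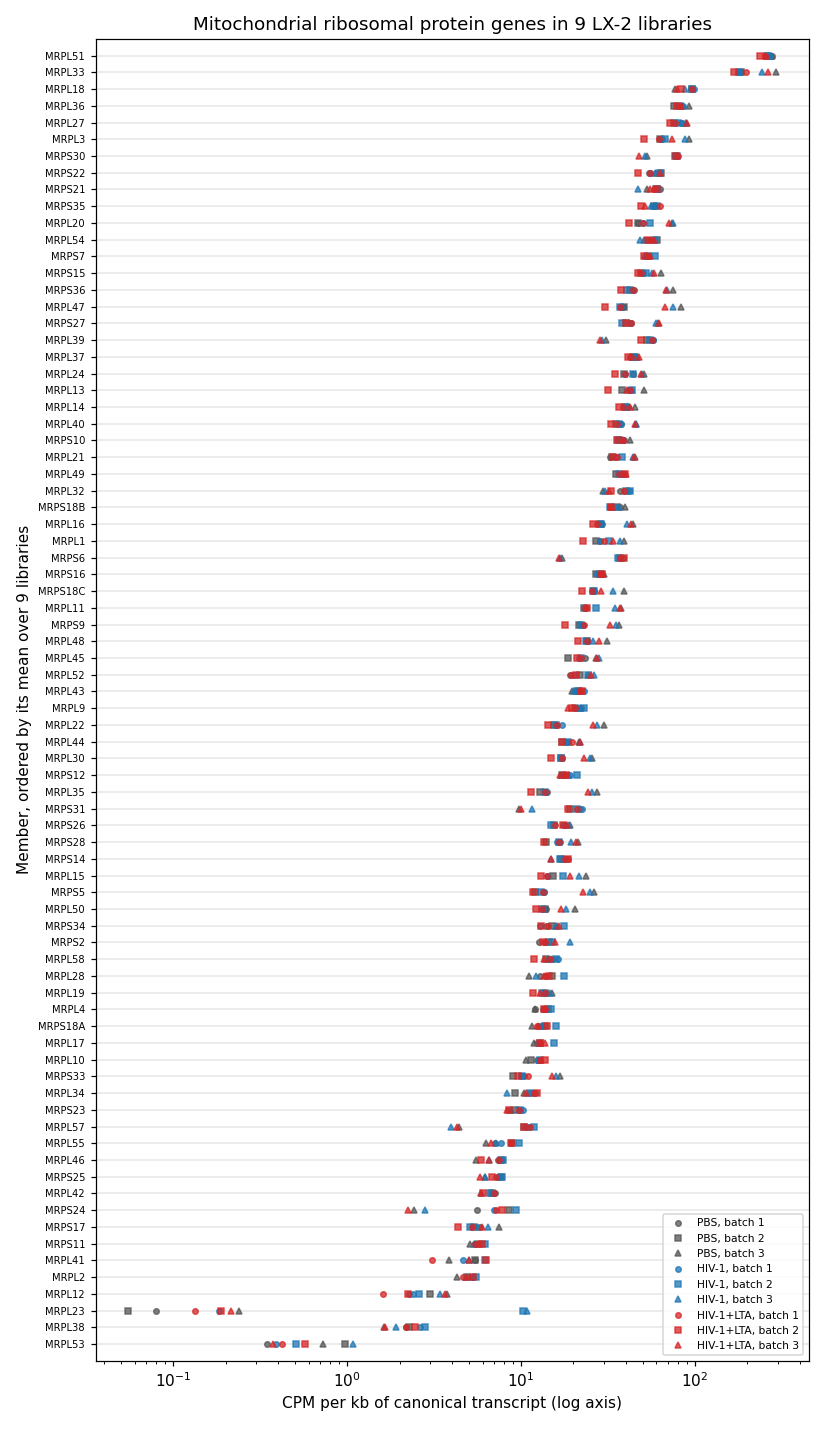
Level of each of the 78 members in each library, as CPM per kb of canonical transcript on a log axis; colour gives the group and shape the batch. Most members have 9 nearly coincident points, MRPL23 has 2 blue points near 10 and the other 7 below 1, and members such as MRPS24, MRPL57 and MRPL47 have the 3 batch 3 triangles apart from the rest.

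HIV-1 against PBS asks what virus alone did at 24 h. One member had a pattern of its own: MRPL23, a large subunit protein counterpart of bacterial L23 at the exit tunnel (chr11:1968508-2005752). Its counts were 5, 3 and 8 with PBS in batches 1, 2 and 3, 7, 414 and 423 with HIV-1, and 6, 9 and 7 with HIV-1+LTA. HIV-1 replicates 2 and 3 were thus high, HIV-1 replicate 1 lay among the other libraries, and the HIV-1 group overlapped both other groups. In CPM those libraries read 0.0534, 0.0371 and 0.160 with PBS, 0.123, 6.90 and 7.32 with HIV-1, and 0.0893, 0.127 and 0.144 with HIV-1+LTA. MRPL23 was 1 of 35303 genes, the only one, with at least 20 counts in both of those HIV-1 libraries and more than 2-fold above the highest of the other 7; at 3-fold and 5-fold the number was also 1. This gene was singled out by earlier results on these libraries, so its values are a description.

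**Figure D2:**
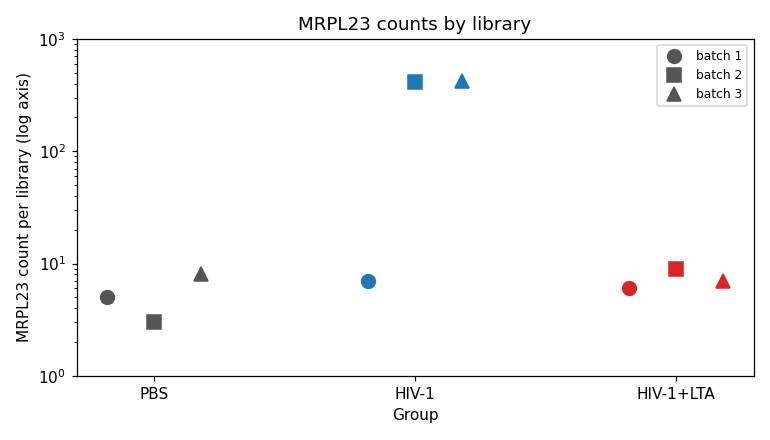
MRPL23 counts in each library on a log axis, by group, with the batch as the symbol. HIV-1 replicates 2 and 3 sit at 414 and 423 counts and the other 7 libraries between 3 and 9.

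MRPL23 fell outside the main test because too few libraries reached the minimum count, and its fits come from genes with a total of at least 10 counts. In edgeR with batch as a block its log2 fold change was 5.62 (SE 0.621, edgeR adjusted p 0.00546) for HIV-1 against PBS. Adding LTA to HIV-1 gave -5.04 (SE 0.595, edgeR adjusted p 0.0123), and both agents against PBS gave 0.58 (SE 0.957, edgeR adjusted p 0.829). DESeq2 with the same block gave 5.41 (SE 1.19, adjusted p 0.0342), -4.73 (SE 1.17, adjusted p 0.00899) and 0.67 (SE 1.23, no adjusted p). The first and second comparisons share the HIV-1 libraries. Without HIV-1 replicate 2 the first was 4.70 (edgeR adjusted p 0.344), and without replicate 3 it was 5.29 (adjusted p 1); the second was -4.05 (adjusted p 0.862) and -4.72 (adjusted p 0.614). Leaving out PBS replicate 2 or 3 also ended the first call, at 4.64 (adjusted p 0.351) and 5.82 (adjusted p 0.419). Leaving out HIV-1+LTA replicate 2 or 3 ended the second, at -4.63 (adjusted p 0.102) and -4.65 (adjusted p 0.441). Without the block neither passed (adjusted p 1 each).

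The genes around MRPL23 did not show its counts. LSP1, a lymphocyte actin-binding protein, had 7 counts in PBS replicate 1 and 2 in HIV-1 replicate 1, and none elsewhere. TNNT3 had 1 count in HIV-1 replicate 2, H19 and PRR33 had 1 count each in other libraries, and MIR4298 had none. MRPL23-AS1, whose annotated span (2004467 to 2011223) overlaps the end of MRPL23, had no count in any library. The genes whose log2 CPM over the 9 libraries was most like that of MRPL23 were BRD2, a chromatin reader (Pearson r 0.922), SLC3A2, an amino acid transporter chain (0.920), PPP1R15A, which relieves the stress block on translation (0.905), the early response gene IER3 (0.901) and the kinase CDK11A (0.899). Their changes were small beside those of MRPL23: BRD2 had 201 and 218 CPM in HIV-1 replicates 2 and 3 and 181 to 189 elsewhere. PPP1R15A had 80.5 and 90.0 CPM there and 55.1 to 67.4 elsewhere. Over 9 libraries, 2 of which set the pattern, such likeness is a description.

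The other 77 members passed the filter on low counts, of 16117 genes that did, and their median with HIV-1 lay near 0. None passed in edgeR at an adjusted p below 0.05, as none of all genes did (0%). At an unadjusted p below 0.05 stood 5 higher and 1 lower member, against 2.57% and 1.63% of all genes. DESeq2 with the block called MRPL23 alone, while 0.015% of all genes passed. Earlier results had singled MRPL23 out, so its call is a description. Limma-voom called 0 members, for which no share of all genes is given. The median log2 fold change was 0.01, with 43 of 77 members above 0, against -0.0015 and 49.2% over all genes. Within batches 1, 2 and 3 the median difference in log2 CPM was -0.01, 0.07 and -0.04. Members higher in all 3 batches numbered 20 (26.0%, background 16.3%) and members lower in all 3 numbered 14 (18.2%, background 17.1%). In bulk libraries fewer cells of a type and less RNA per cell cannot be told apart.

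MRPS12, the counterpart of the decoding-centre protein S12, had the lowest p of the members. It was measured at 16.9, 16.4 and 16.2 CPM with PBS, 18.4, 19.996 and 18.1 with HIV-1, and 17.4, 17.5 and 16.0 with HIV-1+LTA. All HIV-1 libraries lay above all PBS and all HIV-1+LTA libraries, with a log2 fold change of 0.19 against PBS (SE 0.0660, edgeR adjusted p 0.946). MRPL10, the stalk base protein, stood at 21.5, 19.9 and 18.7 CPM with PBS, 22.2, 22.4 and 22.1 with HIV-1, and 22.5, 24.0 and 22.7 with HIV-1+LTA. Its PBS libraries lay below the other 6, with 0.15 (SE 0.0657) for HIV-1 against PBS and an edgeR adjusted p of 0.946. The largest positive values were those of MRPL38 (0.27, SE 0.126), MRPS24 (0.21, SE 0.134) and MRPS2 (0.21, SE 0.0837). The most negative were those of MRPS18B (-0.12, SE 0.0516), MRPL33 (-0.12, SE 0.0636) and MRPS17 (-0.11, SE 0.0803), and none of these passed.

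Adding LTA to HIV-1 asks what the bacterial product did in cells with virus. Of the 77 members, 64 stood below 0 and 13 above, with a median of -0.08, while over all genes the median was -0.0038 and 48.9% stood above 0. The member median was -0.04 without HIV-1 replicate 2, -0.05 without HIV-1+LTA replicate 2 and -0.02 without batch 2. None passed in edgeR, where 0% of all genes passed. At an unadjusted p below 0.05 stood 9 members, all lower, against 7.32% of genes lower and 8.11% higher. DESeq2 called MRPL23 alone (background 1.94%), again a description. Limma-voom called 0 members, for which no share of all genes is given. Members with a bacterial counterpart had a median of -0.09 (8 of 45 above 0) and mitochondria-specific ones -0.07 (5 of 30 above 0). The 5 tested members listed around the exit tunnel, where the new chain leaves the ribosome, all lay below 0 (median -0.11). The highest of them stood at -0.0028, and most of the 77 lay below 0, so the sign does not set them apart. The 3 stalk members had a median of -0.03. The 48 tested MRPL symbols gave -0.08 and the 29 MRPS symbols -0.05.

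**Figure D3:**
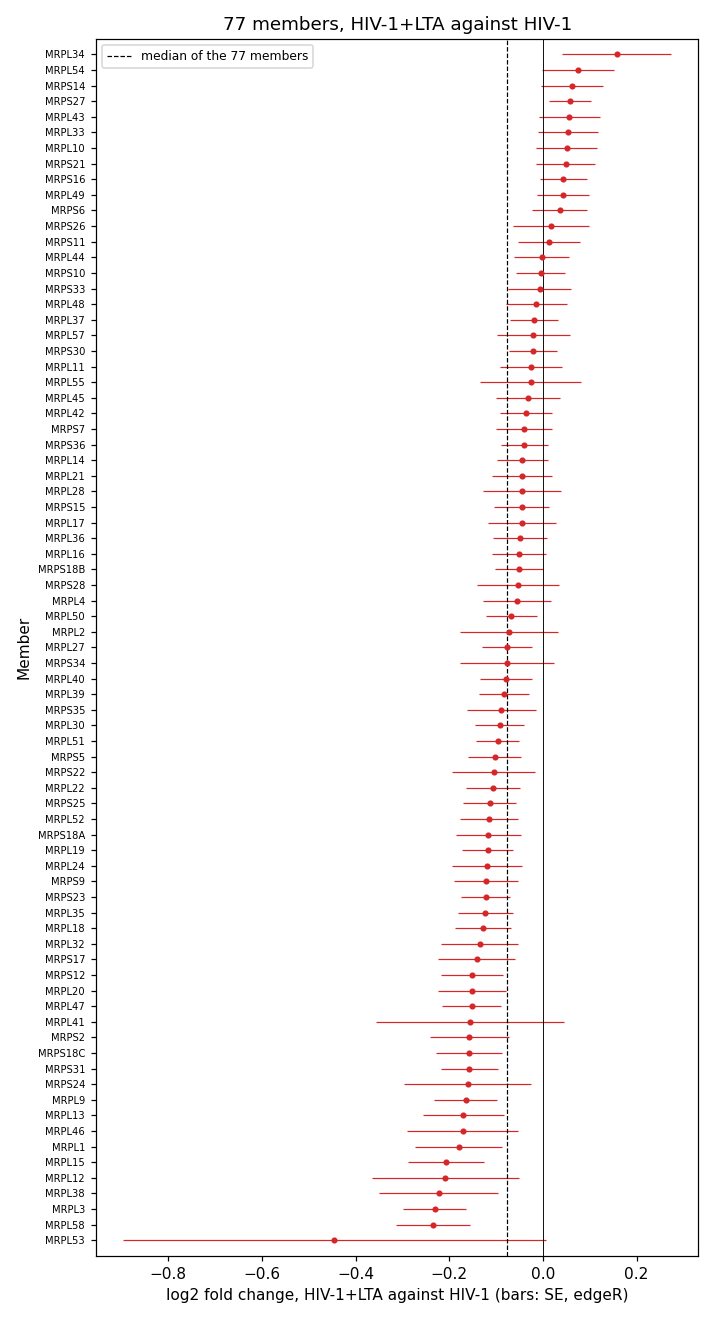
Log2 fold change of each of the 77 tested members for HIV-1+LTA against HIV-1, with its SE from edgeR with the batch block; the dashed line is their median. In all, 64 points lie below 0, most between -0.25 and 0, and MRPL53 at -0.45 has the widest bar.

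MRPL3 (chr3:131181056-131221827), the counterpart of bacterial L3 near the catalytic centre, had the lowest p. It was measured at 109, 108 and 159 CPM with PBS, 111, 115 and 149 with HIV-1, and 107, 87.0 and 126 with HIV-1+LTA. The HIV-1+LTA library was the lowest of its batch in every batch, and batch 3 was high in all groups, so that the groups overlap when batches are mixed. Its log2 fold change was -0.23 (SE 0.0674, edgeR adjusted p 0.198). MRPL58, a peptidyl-tRNA hydrolase built into the large subunit, had 14.6, 14.2 and 13.3 CPM with HIV-1 and 13.1, 10.6 and 12.1 with HIV-1+LTA. These libraries do not overlap, and the log2 fold change was -0.24 (SE 0.0789, edgeR adjusted p 0.222). MRPL15, counterpart of bacterial L15, had 24.6, 30.1 and 37.3 CPM with HIV-1 and 24.3, 22.5 and 32.9 with HIV-1+LTA. Batch 1 hardly differed and batches 2 and 3 were lower, and its log2 fold change was -0.21 (SE 0.0809, edgeR adjusted p 0.267). The highest members were MRPL34 at 0.16 (SE 0.116) and MRPL54 at 0.08 (SE 0.0768), and MRPL53 was the lowest at -0.45 (SE 0.451).

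Within batches the size of the shift differed. The median member difference of HIV-1+LTA minus HIV-1, in log2 CPM, was -0.0095 in batch 1, -0.16 in batch 2 and -0.03 in batch 3. In batch 2, 13 of 77 members lay above 0, against 33 in batch 1 and 31 in batch 3. Members lower in all 3 batches numbered 26 (background 17.1% of all genes, members 33.8%) and members higher in all 3 numbered 4 (5.19%, background 16.7%). MRPL3, MRPL47, MRPL15, MRPL58 and MRPL51 were among the 26. MRPL51 read 243, 236 and 238 CPM with HIV-1 and 227, 213 and 231 with HIV-1+LTA, with no overlap between the groups.

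**Figure D4:**
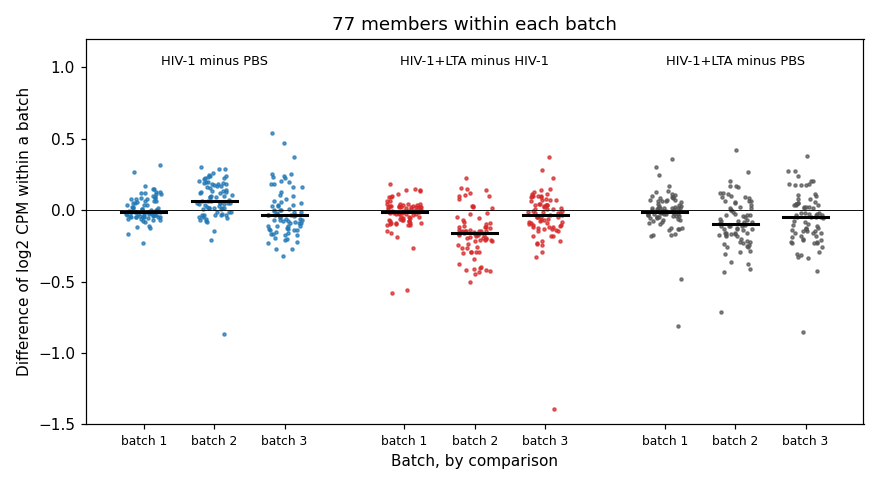
Within-batch difference in log2 CPM for each of 77 members (points) and their median (bar), by comparison and batch. The batch 2 median of HIV-1+LTA minus HIV-1 is -0.16, and the other 2 batches of that comparison lie near 0.

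HIV-1+LTA replicate 1 decided the count of calls. In a fit without it, which used 16342 genes and all 78 members, 11 members passed in edgeR for HIV-1+LTA against HIV-1, all of them lower, against 7.56% of all genes lower and 7.07% higher. They were MRPL23, MRPL3 (-0.32, SE 0.0553, edgeR adjusted p 0.00182), MRPL47 (-0.23, SE 0.0556, adjusted p 0.0145), MRPL15, MRPS35, MRPL1, MRPS18C, MRPL19, MRPL13, MRPS9 and MRPL20. The members called in either direction came to 14.1%, near the 14.6% of all genes, so the share called says nothing particular about them. What sets that library apart was not tested.

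HIV-1+LTA against PBS shares the HIV-1+LTA libraries with the comparison before it. The median member stood at -0.05 with 25 of 77 above 0, against 0.0016 and 50.4% over all genes. Without HIV-1+LTA replicate 2 that median was -0.02. None passed in edgeR (0% of all genes), and at an unadjusted p below 0.05 stood 10 lower and 1 higher, against 8.13% and 8.67% of all genes. DESeq2 with the block called 1 member, MRPL47 (chr3:179306073-179322437), against 1.93% of all genes. Limma-voom called 0 members, for which no share of all genes is given. MRPL47, counterpart of bacterial L29 at the exit tunnel, had 52.3, 52.7 and 112 CPM with PBS, 51.0, 50.1 and 101 with HIV-1, and 49.9996, 40.9 and 91.5 with HIV-1+LTA. The HIV-1+LTA library was the lowest in every batch, and all groups overlap because of batch 3. The edgeR log2 fold change was -0.24 (SE 0.0621, adjusted p 0.205). The authors' deposited table gives MRPL47 -0.25 (SE 0.0730) with a DESeq2 adjusted p of 0.0413, the 1 member of 76 with an adjusted p that passes. The next in the authors' deposited table were MRPL3 at -0.23 (adjusted p 0.0666) and MRPS18C at -0.24 (adjusted p 0.0918).

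MRPS18C, a counterpart of bacterial S18 in the small subunit, had 40.9, 40.3 and 60.2 CPM with PBS and 39.7, 34.5 and 44.8 with HIV-1+LTA. It was lower in all 3 batches, with a log2 fold change of -0.23 (SE 0.0702, edgeR adjusted p 0.205). ABRAXAS1, on the other strand, covers 83.6% of the exon bases of MRPS18C, so the MRPS18C counts are uncertain. MRPS18B had 51.6, 49.9 and 55.0 CPM with PBS and 45.6, 46.1 and 46.8 with HIV-1+LTA. All 3 HIV-1+LTA libraries lay below all PBS libraries, with -0.17 (SE 0.0516, edgeR adjusted p 0.205). MRPL10 had the opposite sign, at 0.20 (SE 0.0655, adjusted p 0.209), and its CPM in all HIV-1+LTA libraries lay above all PBS libraries. Members lower in all 3 batches numbered 26 (33.8%, background 16.4%), and those higher in all 3 numbered 4 (background 17.5%). Without HIV-1+LTA replicate 1, 14 members passed in edgeR, 13 lower (background 8.63%) and MRPL10 higher (background 7.57%). The lower ones were led by MRPL3 (-0.32), MRPL47 (-0.32) and MRPS18C (-0.31).

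Other genes of mitochondrial translation were taken from lists. None of their genes passed in edgeR in the 3 treatment comparisons, where 0% of all genes passed. Mitoribosomal proteins under other symbols (DAP3, GADD45GIP1, CHCHD1, AURKAIP1 and PTCD3) lie outside the name pattern of the members. These 5 had a median of -0.05 with LTA added to HIV-1 (1 above 0). Their median was 0.02 for HIV-1 against PBS and 0.04 with both against PBS (3 above 0 each). For HIV-1+LTA against HIV-1 the 18 tested translation factors had a median of -0.08 (4 above 0) and the 25 assembly factors -0.06 (4 above 0). The 20 genes listed with the mitochondrial aminoacyl-tRNA synthetases had -0.03 (6 above 0). QRSL1, GATB and GATC in that list are not synthetases. The 11 genes of mitochondrial DNA transcription and maintenance had -0.05 (3 above 0). TACO1, a translational activator of COX1, had -0.39 (SE 0.122), MRRF, the ribosome recycling factor, -0.19 (SE 0.0634), and FASTKD5, which processes mitochondrial RNA, -0.23 (SE 0.0676). The 13 genes encoded by mitochondrial DNA all lay above 0 in this comparison, with a median of 0.18, and all below 0 for HIV-1 against PBS, at -0.21, a comparison that shares the HIV-1 libraries. COX2, a subunit of cytochrome oxidase, had 0.29 (SE 0.0818) with LTA added. The 80 cytosolic ribosomal protein genes had medians of -0.05 with HIV-1 against PBS, -0.0067 with LTA added to HIV-1, and -0.06 with both against PBS. Regulators gave no call: GABPA stood at -0.02 (SE 0.0504), YY1 at 0.02 (SE 0.0516) and NRF1 at -0.03 (SE 0.0599) with LTA added to HIV-1, while PPRC1, a coactivator of NRF1, stood lowest of the 10 at -0.25 (SE 0.0801) and PPARGC1A, a coactivator with a mean of 0.788 CPM, highest at 0.83 (SE 0.381).

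Stellate markers fitted the label in part: 11 of 15 were at 1 CPM or more in all libraries. Summed levels of the 15 were 4667 to 9864 CPM with PBS, 5355 to 9208 with HIV-1 and 4980 to 7982 with HIV-1+LTA. The markers that fell short were LRAT (at most 0.0350 CPM), HGF (at most 0.222), DES (at most 0.259) and PDGFRA (0.280 to 2.03). The 9 hepatocyte markers summed to at most 2.30 CPM in any library. Of 10 macrophage and T cell markers 1 was at 1 CPM or more throughout, and their sums ran from 3.14 to 20.4 CPM over all groups. Single stellate markers differed between batches: for batch 3 against the mean of batches 1 and 2 the 12 tested ran from -2.09 to 3.01 in log2. Of these, 4 passed higher and 6 lower in edgeR, against 35.2% and 36% of all genes. The part of cell makeup in the member shifts was not tested.

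More members passed between batches than between treatments. Between batch 3 and the mean of batches 1 and 2, in the same edgeR fit, 51 of 77 members passed (66.2%), near the background of 71.2%. Of these 35 were higher (45.5%, background 35.2%) and 16 lower (20.8%, background 36%). MRPS24, a counterpart of bacterial S3, had the lowest difference at -1.59 (SE 0.130). It was measured at 3.74, 5.72 and 1.62 CPM with PBS in batches 1, 2 and 3, at 4.66, 6.20 and 1.87 with HIV-1, and at 4.79, 5.18 and 1.49 with HIV-1+LTA. Batch 3 was low in every group and did not overlap the others. Another gene covers 90.9% of the exon bases of MRPS24, the read-through URGCP-MRPS24, so its counts are uncertain.

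MRPL57 and MRPS31, both on chromosome 13, and MRPS6 and MRPL39, both on chromosome 21, came next. MRPL57 had 23.7, 23.1 and 9.84 CPM with PBS, 24.5, 26.4 and 8.79 with HIV-1, and 25.2, 23.1 and 9.59 with HIV-1+LTA, a difference of -1.37 (SE 0.0730). MRPS6, the counterpart of bacterial S6, had 35.8, 34.4 and 15.9 CPM with PBS, 34.7, 33.7 and 15.6 with HIV-1, and 34.6, 36.6 and 15.4 with HIV-1+LTA, a difference of -1.16 (SE 0.0536). In both genes all batch 3 libraries lay below all others, whatever the treatment. MRPS31 stood at -0.996 (SE 0.0559) and MRPL39 at -0.89 (SE 0.0486). Among the 77 members the highest was MRPL47 at 1.04 (SE 0.0521), then MRPL35 at 0.95 (SE 0.0488) and MRPS5 at 0.94 (SE 0.0478), both on chromosome 2. Another annotated gene covers 97.1% of the exon bases of MRPS5, so the MRPS5 counts are uncertain. MRPL35 had 52.3, 48.1 and 102 CPM with PBS, 51.8, 51.4 and 95.7 with HIV-1, and 51.3, 42.7 and 89.9 with HIV-1+LTA. Its batch 3 libraries lay above all others. MRPL23, outside this test, gave 2.24 (SE 0.520, edgeR adjusted p 0.00166) among genes with a total of at least 10 counts and 1.30 (adjusted p 0.286) in DESeq2, with the HIV-1 library of batch 3 at 423 counts and the others of that batch at 8 and 7.

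These differences went with position in the genome. For each member the median difference was taken over other tested genes starting within 5 Mb, 11 to 228 of them. Across 77 members the Pearson r between the member and that median was 0.77 (Spearman rho 0.69), and the sign was the same for 59 (76.6%). Points share libraries, and nearby members share neighbours. Over 15546 genes of all kinds the same r was 0.30 (Spearman rho 0.46) and the sign matched for 68.7%. The SD of the member differences was 0.49 and fell to 0.32 once the neighbours' median was subtracted, and 68 members lay within 0.5 of it. MRPL39 (-0.89) had neighbours at -0.88, MRPS31 (-0.996) at -0.77, MRPS9 (0.69) at 0.53 and MRPS36 (0.74) at 0.54. MRPS24 (-1.59, neighbours -0.49), MRPL12 (0.64, neighbours -0.11) and MRPL24 (0.31, neighbours -0.41) lay farthest from theirs.

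**Figure D5:**
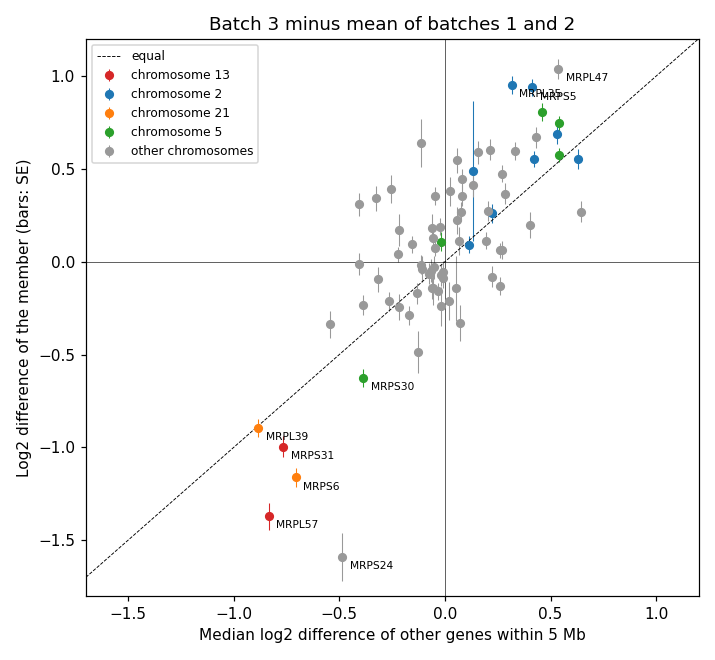
Difference between batch 3 and the mean of batches 1 and 2 (log2) for each of 77 members, with its SE, against the median difference of other tested genes starting within 5 Mb; colours pick out 4 chromosomes. Members on chromosomes 13 and 21 lie at the lower left with neighbours below -0.6, and those on chromosome 2 at the upper right; the dashed line marks equality.

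The relation was similar in each group taken alone: r was 0.78 in PBS, 0.77 in HIV-1 and 0.73 in HIV-1+LTA libraries, over the same 77 members. Between batch 2 and batch 1 it was 0.44, where the SD of the member differences was 0.15. In the treatment comparisons it was 0.27 for HIV-1 against PBS, 0.04 with LTA added to HIV-1, and 0.21 with both against PBS. The median of the members had the same sign as that of the other genes on 15 of 21 chromosomes. All 8 tested members on chromosome 2 were above 0 (median 0.55, other genes there 0.38) and so were 4 of 5 on chromosome 5 (0.57, others 0.35). MRPS30, the exception on chromosome 5 at -0.63, had neighbours at -0.39. Other genes on chromosome 13 had a median of -0.64 and on chromosome 21 of -0.72. The sign differed on 6 chromosomes: MRPL1 and MRPS18C on chromosome 4 had a median of 0.39 against -0.25 for other genes, and the members were at 0.28 against -0.11 on chromosome 3, 0.27 against -0.19 on chromosome 14, 0.35 against -0.06 on chromosome 22, 0.05 against -0.03 on chromosome 1 and -0.01 against 0.30 on chromosome 10. Of the 10 tested regulators of mitochondrial biogenesis 4 passed higher and 4 lower in edgeR, against 35.2% and 36% of all genes. The lower ones were PPARGC1A (-3.19), GABPA on chromosome 21 (-1.16), YY1 (-0.71) and SP1 (-0.12), and the higher ones were MYC (0.85), PPARGC1B (0.80), GABPB1 (0.75) and PPRC1 (0.62). What made batch 3 differ was not tested.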

How the data were processed

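Counts are as the authors deposited them, unnormalized whole numbers per gene symbol, made on hg19 with fastp, STAR, SAMtools and HTSeq per the submitters' processing notes, without versions. The authors' deposited DESeq2 table holds the mean signal (normalized counts), log2 fold change, Wald score, p-value and adjusted p-value, and names no comparison; a DESeq2 fit here gave all 78 members within 0.01 of it for HIV-1+LTA against PBS. The peak list came from Bowtie2, bedtools and deepTools per the same notes. The strand setting is not given in the sources used here, and each library was made from 1 ug of RNA, per the labels.

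Genes were kept by filterByExpr and tested with edgeR 4.0.16 (quasi-likelihood, TMM, Benjamini-Hochberg over all 16117 genes, threshold 0.05) in R 4.3.3, in 1 fit with group and batch. MRPL23 did not pass that filter, so its row comes from a fit of genes with a total of at least 10 counts. Alternatives were DESeq2 1.42.0, limma 3.58.1 (voom), other scalings and filters, no block, and leaving out libraries or batches. Log2 CPM used a prior count of 2. The test was checked on simulated counts for HIV-1+LTA against HIV-1. It recovered 68% of genes changed 1.5-fold and 98% of those changed 4-fold, with 15 false calls. Changes below 1.5-fold were not simulated, so the check does not show whether smaller shifts would be called.

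The replicate number is a batch in the labels, which pairs the libraries; deviations from the group means correlated at 0.817 to 0.983 within batches, over 9319 genes of at least 10 CPM. No pair of libraries was a copy, since the lowest chi-square between them was 3.80 times its expectation. Members and lists were chosen with earlier results of these data known. Named are MRPL23, members past the threshold, the 8 highest and 8 lowest per comparison above a mean of 1 CPM, the 6 highest and lowest levels per kb, and for MRPL23 the 5 most similar genes and those within 100 kb; the remaining names, such as MRPL51 and MRPS18B in some comparisons, MRPL24, MRPL37, MRPL46, MRPS11 and the regulators, were chosen after their values were seen. Exons, lengths and starts are from GENCODE v44 on GRCh37, and promoters from RefSeq on GRCh38.p14.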

Additional observations from a re-analysis of the deposited data

How the results depend on the processing

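The count of members called was 0 in each treatment comparison of the edgeR fit. With DESeq2 it was 1, 1 and 1 (in the order virus against PBS, LTA added to virus, both against PBS); without a filter on low counts it was 1, 2 and 3; with a total of at least 10 counts it was 1, 1 and 0. Leaving out 1 library gave 0 to 1, 0 to 11 and 0 to 14, the values 11 and 14 without HIV-1+LTA replicate 1. Leaving out batch 1 gave 1, 2 and 6, and leaving out batch 2 or 3 gave 0. The cause was not tested. Of all genes, DESeq2 called 0.015%, 1.94% and 1.93%. Without HIV-1+LTA replicate 1, edgeR called 14.1% of members against 14.6% of all genes with LTA added to virus. With both against PBS it called 17.9% against 16.2%. Shares of all genes are not given for limma-voom, the other filters, left-out libraries and batches, so those counts are no result about the members. MRPL23, singled out by earlier results, was the member that DESeq2 called for HIV-1 against PBS and for HIV-1+LTA against HIV-1. It is also among the 11 called without HIV-1+LTA replicate 1, and so within the 14.1%. The replicate block changed 2 calls: without it MRPL23 gave 5.89 for HIV-1 against PBS and -5.30 for HIV-1+LTA against HIV-1, each with an edgeR adjusted p of 1. With 1 library left out MRPL23 ran from 4.64 to 6.34, from -5.68 to -4.05, and for HIV-1+LTA against PBS from -0.42 (reversed, without PBS replicate 2) to 1.15. Without batch 2 it was 4.52 and -4.38, and without batch 3 it was 5.67 and -4.56, none past the threshold in edgeR. The median of members stayed below 0 for HIV-1+LTA against HIV-1 under every alternative run (-0.10 to -0.02) and for HIV-1+LTA against PBS (-0.07 to -0.02). For HIV-1 against PBS it ran from -0.04 to 0.03 and has no settled sign. In the batch comparison 44 to 56 members passed with 1 library left out, and the correlation with neighbours was 0.76 with a window of 2 Mb and 0.79 with 10 Mb, windows chosen after seeing the data. Fold changes of MRPL23 rest on 3 to 9 counts in 7 libraries.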
